A study of Homo sapiens with 18 samples.

Results

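The regions described here carried an H3K27ac peak in 3 of 3 VPA-treated libraries of HEK293T cells and in 0 of 3 untreated (CTRL) libraries. Peaks of the 6 H3K27ac libraries were merged where they shared 1 bp, which gave 55382 regions on the 22 autosomes. Of these, 2284, or 4.12%, met the rule and are called the regions only in VPA. They were chosen by the presence and absence of peaks in the H3K27ac lists, so their H3K27ac values are a description and carry no test. The same rule with the treatments exchanged gave 77 regions only in CTRL, or 0.139%.

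HEK293T is an established line derived from human embryonic kidney that expresses a viral large T antigen. The cells were left untreated (CTRL) or cultured with 1 mM valproic acid (VPA) for 1 day, and their chromatin was precipitated with antibodies to H3K27ac and to CTCF in 3 libraries per antibody and treatment. Each of the 12 peak lists holds the places where fragments stood above the local background at a q-value (false discovery rate) of 0.05, and 6 input libraries were not analysed here. The labels number the libraries without naming separate cultures, so the spread between them may be technical. Each library pools many cells, and more acetylation per cell cannot be told apart from acetylation in more cells.

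Valproic acid inhibits histone deacetylases, the enzymes that remove acetyl groups from histone tails. H3K27ac is the acetylated form of a lysine of histone H3 and is known as a mark of active promoters and enhancers. CTCF is a zinc finger protein that binds a long DNA motif and is known for its place at chromatin loop anchors and domain boundaries.

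The replicate 1 libraries stood apart from the others, and this bears on how many regions met the rule. The share of peaks that sat on the lowest local background of their list was 21.3% in CTRL replicate 1 and 24.0% in VPA replicate 1, against 3.49% to 7.25% in the other 4 H3K27ac lists. The CTRL lists held 26299 to 29799 peaks and the VPA lists 38441 to 40992. With every list cut to the length of the shortest, 540 regions met the rule. Without VPA replicate 1 the number was 5636, and with replicates 2 and 3 alone, a choice made after the data were seen, it was 6318. Without VPA replicate 2 or 3 it was 3200 and 3348. Leaving a list out loosens the rule, which then asks for a peak in every remaining VPA list and in no remaining CTRL list. Read totals are not in the lists, and the lowest local background, 3.51 to 3.95 fragments, was of like size in all 6. Among genes active in HEK293 cells, an H3K27ac region met the promoters of FZD3 and SALL4 in 6 of 6 lists and those of LIN28B, PAX2 and EYA1 in 0. Promoters of other lineages (PTPRC, CD3E, ALB, HBB, MYH7 and INS) were met in 0 lists.

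A pair of the strongest regions only in VPA is shown first, to let the letters at a summit be seen. Strength was the within-list percentile of the peak, ranked by its -log10 q-value and averaged over the 3 VPA lists. Each line gives the highest point of the region and 100 bases on each side of it, from hg38 and in lower case. Capitals mark the GATA factor motif AGATAA, which reads TTATCT on the other strand, in the first and the NFI motif TTGGCA in the second.
Region near LAPTM5, chr1:30778835-30779035, plus strand: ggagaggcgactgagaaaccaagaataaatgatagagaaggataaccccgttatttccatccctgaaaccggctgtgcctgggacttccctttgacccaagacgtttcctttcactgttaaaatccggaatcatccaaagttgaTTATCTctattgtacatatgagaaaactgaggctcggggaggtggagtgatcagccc
Region near CEACAM21, chr19:41501636-41501836, plus strand: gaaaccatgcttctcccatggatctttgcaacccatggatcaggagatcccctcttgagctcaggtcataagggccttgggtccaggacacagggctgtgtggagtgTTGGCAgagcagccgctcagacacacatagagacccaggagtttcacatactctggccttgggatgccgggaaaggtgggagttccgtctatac

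Regions between genes are named by the nearest gene start, however far away. The region near LAPTM5 lay 21.2 kb from the start of this gene of a lysosomal membrane protein of blood cells. Its summits held 114, 103 and 94 fragments in VPA replicates 1, 2 and 3, and the fold enrichment over local background was 5.18, 8.90 and 6.39. A CTRL region lay 1.90 kb away. The region with the next highest percentile met an exon of ALDH16A1, a member of the aldehyde dehydrogenase family, and held 97, 93 and 88 fragments with folds of 5.02, 9.32 and 8.93. In both, fold was lowest in replicate 1, where the local background was 21.2 and 18.5 fragments against 8.97 to 13.9 in the other libraries. The region near CEACAM21, a gene of a cell adhesion family, showed the opposite order, with folds of 15.1, 7.11 and 5.96. The region in an intron of JRKL lay 51.9 kb from any CTRL region and had folds of 5.04, 11.04 and 9.74.

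Others of the 12 strongest lay near CHMP6, HRH4, APOD, TLX3, C16orf54 and TNK2 and in an intron of RAD9B. They include surroundings of an endosomal sorting factor (CHMP6), a histamine receptor (HRH4), a lipid carrier (APOD), a homeobox factor (TLX3) and a tyrosine kinase (TNK2). Their mean folds ran from 5.47 near CHMP6 to 8.83 near APOD. The mean percentile of the 12 ran from 59.1% for RAD9B to 66.2% for the region near LAPTM5, so even the strongest stood well within the lists and not at their top.

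The regions only in VPA were low peaks in all 3 VPA libraries. Median fold enrichment was 3.85, 3.34 and 3.40 in VPA replicates 1, 2 and 3, the median summit held 28, 31 and 29 fragments, and the median local background was 5.64, 8.59 and 7.98 fragments. Regions present in all 6 lists, by contrast, had median folds of 7.49, 15.3 and 15.5 and summits of 231, 180 and 175 fragments in the same VPA libraries. The median -log10 q-value of the regions only in VPA was 7.60, 7.12 and 6.89, at the percentiles 32.4%, 32.6% and 29.9% of their lists. A value of at least 3 in every VPA list was met by 1693 regions and a value of at least 10 by 204. Only 51 ranked in the upper 50% of every VPA list, and 0 ranked in the upper 25% of every list. Fold was highest in replicate 1 for 49.4% of the regions, which is the library that stood apart.

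**Figure D1:**
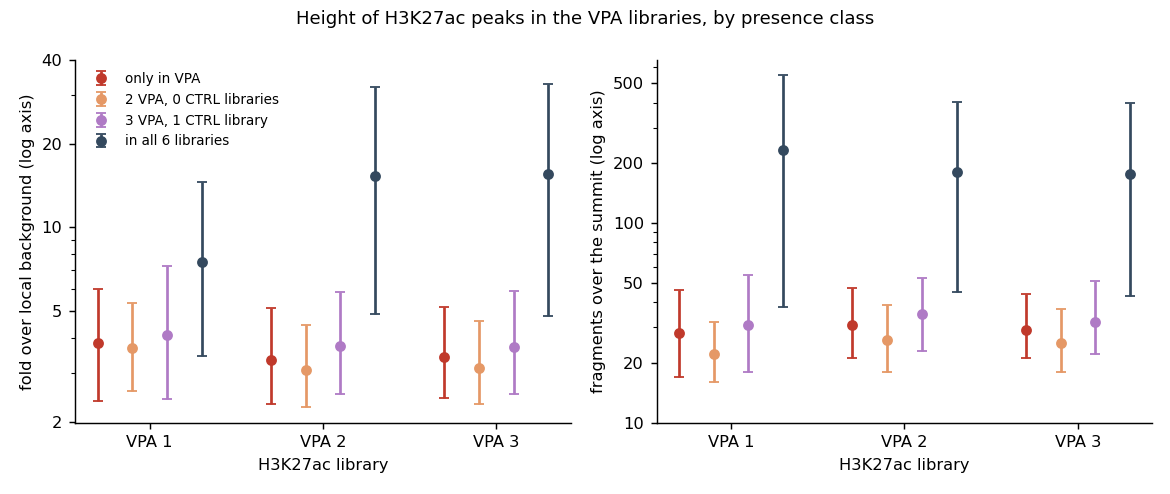
Fold enrichment over local background (left) and fragments over the summit (right) of H3K27ac peaks in each VPA library, on log axes. Points are medians over regions and bars run from the 10th to the 90th percentile of regions. The regions only in VPA, with median folds of 3.34 to 3.85, sit beside the classes just outside the rule and below the regions of all 6 libraries, with 7.49 to 15.5.

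Just outside the rule stood 5158 regions with a peak in 2 VPA lists and no CTRL list, and 1784 with a peak in 3 VPA lists and 1 CTRL list. The first had median folds of 3.69, 3.06 and 3.12 in VPA replicates 1, 2 and 3, and the second 4.10, 3.73 and 3.71. In the CTRL list that held them, the second had median summits of 21, 26 and 23 fragments in replicates 1, 2 and 3. These are near the 28, 31 and 29 fragments of the regions only in VPA, and the lowest summit in any list was 11 fragments. A place without a CTRL peak could thus hold fragments that stayed below the call. The regions were compact, with a median width of 1037.5 bp (391 to 3880 bp) against 2558 bp for regions in all 6 lists. Summits in the 3 VPA libraries spanned a median of 194 bp, and for 51.0% of the regions they fell within 200 bp of one another.

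Most regions only in VPA lay away from promoters. A summit within 1 kb of the annotated 5′ end of a protein-coding gene was found for 40 of 2284, or 1.75% (95% Wilson interval 1.29 to 2.38), against 47.2% of regions in all 6 lists and 18.2% of all regions. Introns held 1087 (47.6%), the space between genes 1066 (46.7%) and exons 91 (3.98%). Over all regions these shares were 44.4%, 31.1% and 6.22%. The median distance to a gene start was 23.8 kb, against 1.71 kb for regions in all 6 lists and 18.4 kb for all regions. The classes just outside the rule also lay mostly away from promoters. Those with 2 VPA lists and no CTRL list had 2.75% at promoters and a median distance of 23.4 kb. Those with 3 VPA lists and 1 CTRL list had 1.79% and 25.9 kb. The Wilson intervals cover counting error only. The 77 regions only in CTRL lay mainly in introns (71.4%, 60.5 to 80.3), and 0 of them at a promoter, which allows a share of up to 4.75%. The share inside protein-coding genes was 52.5% for the regions only in VPA, 75.3% for those only in CTRL and 66.2% for all regions. Regions in all 6 lists had 72.5%, and the classes just outside the rule had 59.8% and 58.6%. For the regions only in VPA it was 43.9% with lists of equal length and 57.1% with replicates 2 and 3 alone.

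The 40 promoter regions are named here by the gene start they met and were singled out after their values were seen. The strongest met the start of LAT2, a signaling adaptor of blood cells, with folds of 4.12, 4.87 and 7.07. The region at TNFAIP8L2, an immune regulator, had folds of 5.07, 5.25 and 3.86. That at CCDC92B had 2.27, 5.76 and 6.70, where replicate 1 had a local background of 38.7 fragments against 9.25 and 8.85. The region at CACNA1A, a calcium channel of neurons, had folds of 5.13, 3.97 and 4.55 and lay 87.2 kb from a CTRL region. That at HLA-DPB1, an antigen presentation gene, had 5.86, 5.03 and 3.03 at 84.6 kb. AMBN, an enamel matrix gene, had 5.77, 5.41 and 3.81 at 94.5 kb. RGS4, a regulator of G protein signaling, had the most distant one, 138 kb from a CTRL region, with folds of 4.28, 3.04 and 3.87. TRIML2 had a pair of neighbouring regions, with folds of 4.27, 4.65 and 3.43 in one and 4.14, 3.57 and 3.86 in the other. Further promoters were those of ALDH1A1, LUM, CYP3A5, OASL and ITGA10, with mean folds between 2.14 at OASL and 5.26 at ALDH1A1. Base composition set most of these starts apart from the usual acetylated promoter, since their median G+C was 48.3% and their median CpG ratio 0.277, against 54.2% and 0.635 for promoters in all 6 lists.

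Genes that held several of the regions were few. The bodies of 1110 of 19111 protein-coding genes, 5.81%, held at least 1 summit. Of these, 971 held 1, 116 held 2, 19 held 3 and 4 held 4. The 23 genes with at least 3 were long, with a median length of 151 kb against 87.2 kb for genes with any and 27.9 kb for all genes. A CTRL region met the annotated 5′ end of 19 of the 23, against 64.9% of all protein-coding genes. Their number was 0 with lists of equal length, 156 without VPA replicate 1 and 212 with replicates 2 and 3 alone. Without VPA replicate 2 or 3 it was 56 and 66, and the rule is looser in each setting that leaves a list out.

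Among the 4 genes with 4 regions were IL6R, COL26A1 and KAT6B. IL6R encodes the interleukin-6 receptor, and its 4 regions lay in introns (chr1:154417771-154445392), with 26.7 kb between the outer summits, 9.41 to 11.7 kb from a CTRL region. The third of them had folds of 4.74, 2.27 and 3.87 in VPA replicates 1, 2 and 3, and the others had folds between 1.95 and 3.25. COL26A1, a collagen gene, held 2 CTRL regions and 4 of the regions only in VPA with outer summits 149 kb apart, the third with folds of 5.14, 3.49 and 3.13. KAT6B, a histone acetyltransferase, held 4 with outer summits 108 kb apart, each within 3.43 kb of one of its 15 CTRL regions, with folds of 2.61 to 4.85. No IL6R, COL26A1 or KAT6B region shared a base with a CTCF peak.

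The 19 genes with 3 regions included NFIX, RREB1, ZNF652, DACH1, GTF2I and STAT5B. In NFIX, a factor of the NFI family, 2 of the 3 carried CTCF in 6 lists, and folds were 2.02 to 3.69. The STAT5B region at chr17:42266369-42268049 had folds of 4.52, 4.23 and 6.85, the highest of its 3. DACH1 held 3 with outer summits 203 kb apart, and the one 34.3 kb from a CTRL region had folds of 6.98, 6.56 and 3.34, the highest of the 3 in replicates 1 and 2 but not in replicate 3. GTF2I lies in duplicated sequence with near-identical copies, so its reads may come from more than 1 place. The densest gene was GJC1, a gap junction gene, with outer summits of its 3 regions 5.67 kb apart, all within 1.16 kb of a CTRL region and with folds of 2.34 to 3.82. PCDH7, a protocadherin, held 3 with folds of 3.63 to 7.08, and in a pair of them replicate 3 was highest. The loneliest were those of EYS, a photoreceptor gene, 288 to 523 kb from any CTRL region, with folds of 6.41, 5.79 and 7.12 in the one nearest to a CTRL region and 4.28, 8.09 and 5.52 in the next. Further genes with 3 were ANKRD24, SLC35F2, ENSG00000285542, VPS35L, FHAD1, TRAK1, PLEKHG1, CCDC178 and AGAP1, with folds between 1.78 and 7.48.

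Gene families gave shares of genes with a region that lay on both sides of 5.81%, the share of all protein-coding genes. Families were taken by the letters that open a gene symbol, so a family can hold genes of another kind. Collagens had 5 of 42 genes (11.9%, 5.19 to 25) and kinesins 5 of 43 (11.6%, 5.07 to 24.5), and both intervals include 5.81%. Cadherins had 6 of 91 (6.59%), glutamate and GABA receptors 3 of 43 (6.98%), calcium and sodium channels 3 of 44 (6.82%), potassium channels 5 of 94 (5.32%) and guidance genes 4 of 76 (5.26%). Solute carriers had 13 of 371 (3.50%), genes with the prefix RPL or RPS 6 of 93 (6.45%) and deacetylases 1 of 16, HDAC9. The 6 include the kinase gene RPS6KB1 and the readthrough gene RPS10-NUDT3, so they are not all ribosomal protein genes. Families below the background were zinc finger genes of the ZNF series, with 10 of 504 (1.98%, 1.08 to 3.61), and homeobox genes with 0 of 85. The latter allows a share of up to 4.32%. Also below it were olfactory receptors with 0 of 415 and genes with the prefix KRT, keratin-associated proteins among them, with 1 of 152 (KRT8). ADAM genes had 0 of 45, an interval that reaches 7.87%. Gene length did not order these shares. Its median was 133 kb for collagens and 2.53 kb for olfactory receptors, but 169 kb for glutamate and GABA receptors and 89.9 kb for ADAM genes. It was 5.91 kb for the RPL and RPS genes, although RPS6KB1 and RPS10-NUDT3 have 57.5 and 141 kb. The part of gene length was not tested. A CTRL region lay in 78.2% of the ZNF genes and in 51 of the 85 homeobox genes, against 65.1% of all protein-coding genes. Examples with a region were CDH1 and CDH5 (cell adhesion), SEMA3C, SLIT1, ROBO1 and ROBO2 (axon guidance), and GRIN2D and GRIK5 (glutamate receptors).

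Some regions lay in runs, here neighbours no more than 50 kb apart. There were 1637 single regions, 225 pairs, 37 runs of 3, 11 of 4, 6 of 5 and 2 of 6. A run of 6 spanned 85.3 kb between VRK3 and IZUMO2 (chr19:50082566-50167835), with 7 CTRL regions among them. Its middle 4 held 50 to 89 fragments at the summit, far above the median of 28 to 31, but sat on a local background of 17.6 to 49.5 fragments, so that folds were 1.46 to 4.83. The other run of 6 spanned 87.4 kb at QPRT, an enzyme of NAD synthesis, and C16orf54 (chr16:29675242-29762627), and 4 of its 6 carried CTCF in 6 lists. Its strongest region, near C16orf54, held 65, 61 and 66 fragments with folds of 6.95, 4.55 and 7.46. Runs of 5 lay at GJC1 and EFTUD2 (45.1 kb), at AP5S1 and MAVS, the latter an antiviral signaling adaptor (65.0 kb), near NEBL (68.8 kb) and at C4orf45 (75.5 kb).

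By chromosome, the density of the regions only in VPA ran from 0.343 per Mb on chromosome 21 to 2.90 per Mb on chromosome 19, around 0.794 per Mb over all autosomes. Chromosome 17 followed with 1.97 and chromosome 20 with 1.37 per Mb. The order went with gene density and with the density of all H3K27ac regions. Across the 22 chromosomes Spearman's rank correlation was 0.93 with protein-coding genes per Mb and 0.97 with all regions per Mb. The points share their libraries and base composition, and this is a description. Set against the regions found in at least 2 VPA lists on the same chromosome, the range narrowed to 4.11 per 100 on chromosome 21 (2.55 to 6.58) and 9.21 on chromosome 20 (7.53 to 11.2), around 6.47 over all autosomes. The rank correlation of this share with protein-coding genes per Mb was still 0.74. The interval of chromosome 20 lay above 6.47, as did those of chromosome 1 (7.58, 6.78 to 8.46), chromosome 17 (7.52, 6.49 to 8.71) and chromosome 19 (7.87, 6.81 to 9.08). That of chromosome 5 lay below (5.14, 4.18 to 6.29). These chromosomes were singled out after their values were seen. Like the number of regions, the values moved with the libraries used. Without VPA replicate 1 chromosome 19 had 7.98 per Mb and chromosome 20 had 19.9 per 100, and with lists of equal length they had 0.989 and 2.98. Without VPA replicate 2 or 3 chromosome 20 had 16.7 and 16.4 per 100. The limit of at least 2 VPA lists was kept, which asks for every remaining VPA list when 1 is left out. Values over all autosomes are not given for these settings, so whether chromosome 20 still stood above them is not shown.

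**Figure D2:**
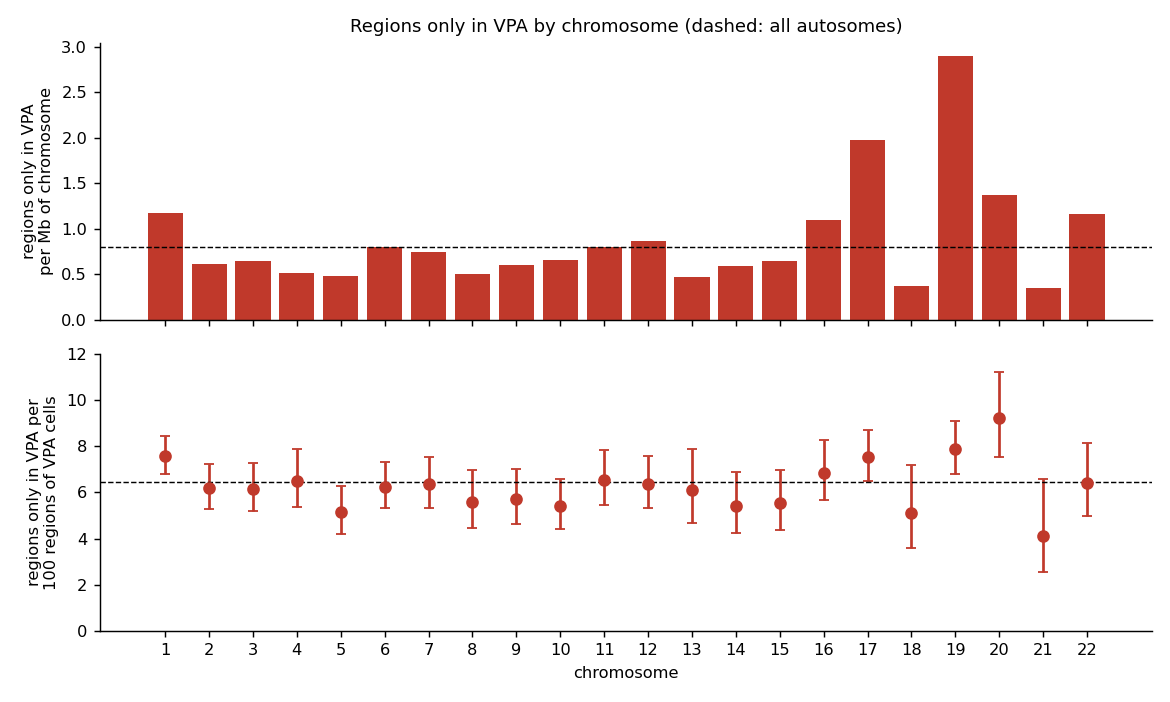
Regions only in VPA per Mb of each autosome (top, bars) and per 100 regions present in at least 2 VPA libraries (bottom, points with 95% Wilson intervals). Dashed lines mark all autosomes, at 0.794 per Mb and 6.47 per 100. Chromosome 19 stands highest per Mb at 2.90, and chromosome 20 stands highest per 100 at 9.21.

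The regions only in VPA were poorer in G+C and CpG than the regions of all 6 lists. Their median G+C was 47.2% (quartiles 44.2 and 50.3) against 51.7%, and their median CpG ratio, the CpG count over that expected from the C and G content, was 0.270 against 0.551. Within 500 bp around the summit, G+C was 47.8% against 61.4%. Within a position class the gap was smaller. In those 500 bp the medians were 47.4% against 50.6% in introns and 48.0% against 52.6% between genes, and over whole regions, which are wider in the latter class, 47.1% against 47.4% and 47.1% against 48.9%. The CpG ratio differed by more within the same positions, 0.274 against 0.328 in introns and 0.265 against 0.371 between genes. The classes just outside the rule were alike, at 48.1% and 47.1% G+C, and the regions only in CTRL had 47.3% with a CpG ratio of 0.189.

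The extremes of G+C were 82.4% at the promoter of TMEM151B and 31.4% between genes near ENSG00000237378. The 5 highest in G+C also included CCDC92B, an exon of SCRT1, and regions near HES3, a gene of the Hairy and Enhancer of Split family, and EEF1A2, a translation elongation factor. In these 5, replicate 1 had the lowest fold, 2.15 to 2.51, on local backgrounds of 27.7 to 45.4 fragments. The 5 lowest in G+C, 31.4% to 33.3%, lay in introns of SEMA3C and FBXO8 and between genes, where the nearest starts were ENSG00000237378 (229 kb away), MDFIC2 (295 kb) and FAM174A (727 kb), and all 5 lacked CTCF. A region of each kind, the fourth highest and the lowest, is printed to make the contrast in letters visible. Capitals mark GGAATG (TEAD), TTGGCA (NFI) and CCGCCC (the SP/KLF motif on the other strand).
Region near HES3, chr1:6245852-6246052, plus strand: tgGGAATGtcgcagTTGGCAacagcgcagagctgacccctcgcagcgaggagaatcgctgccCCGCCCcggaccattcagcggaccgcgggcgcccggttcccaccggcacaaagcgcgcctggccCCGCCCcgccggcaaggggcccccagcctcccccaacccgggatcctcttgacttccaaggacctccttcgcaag
Region near ENSG00000237378, chr13:63517329-63517529, plus strand: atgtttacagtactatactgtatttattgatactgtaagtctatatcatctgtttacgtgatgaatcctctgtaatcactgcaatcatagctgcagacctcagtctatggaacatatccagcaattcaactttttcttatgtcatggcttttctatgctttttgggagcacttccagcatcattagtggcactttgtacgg
The window near HES3 had 70.6% G+C with folds of 2.51, 5.32 and 4.68 in VPA replicates 1, 2 and 3. That near ENSG00000237378 had 37.3% and none of the motifs searched, with folds of 4.51, 8.08 and 4.72.

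**Figure D3:**
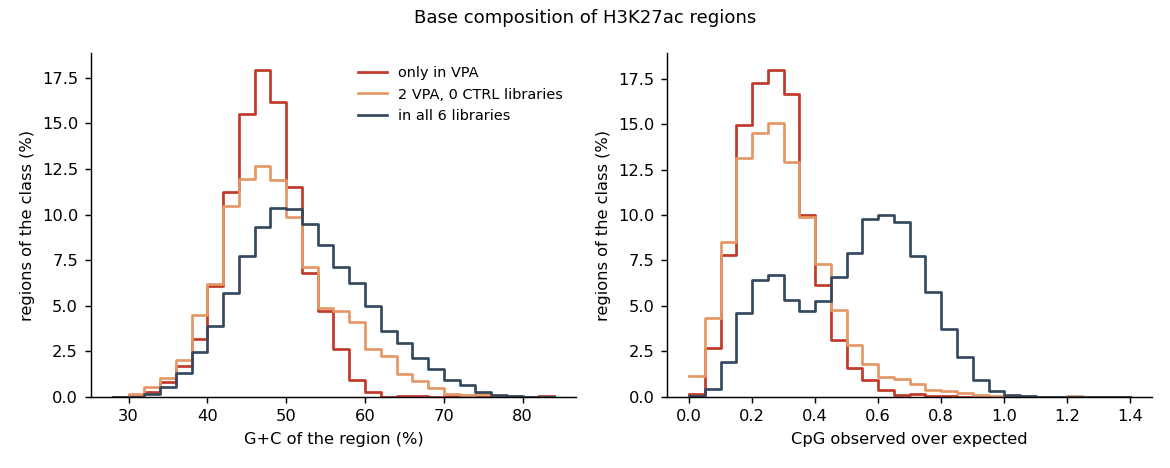
Distribution of percent G+C (left) and of the CpG observed over expected ratio (right) over whole regions, as the percent of regions of each class per bin. The regions only in VPA have one mode, with medians of 47.2% and 0.270, while the regions in all 6 libraries have a second mode at high CpG ratio and a median of 0.551.

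Short motifs were searched as exact letters on both strands within 100 bases on each side of each summit. A match is a description of letters, not a bound site. TGTGGT (RUNX) occurred in 16.6% of the regions only in VPA (15.2 to 18.2), in 7.93% of the regions in all 6 lists and in 13.1% of all regions. TGANTCA (AP-1) occurred in 7.01%, 3.21% and 5.003% of the same classes, the GATA factor motif AGATAA in 7.62%, 3.87% and 6.18%, CCAAT in 17.8%, 11.7% and 14.9%, and TTGGCA (NFI) in 8.49%, 5.66% and 7.44%. The classes just outside the rule were close to the regions only in VPA, at 15.5% each for TGTGGT. The 77 regions only in CTRL had 20.8% (13.2 to 31.1) for TGTGGT, 5.19% for TGANTCA, 9.09% for AGATAA, 27.3% for CCAAT and 16.9% for TTGGCA (10.1 to 26.8). Among regions of all 6 lists in introns or between genes the shares were 11.1% for TGTGGT, 5.001% for TGANTCA, 5.87% for AGATAA, 14.3% for CCAAT and 7.39% for TTGGCA, closer to the regions only in VPA but each below their share. The intervals overlapped for TTGGCA (7.42 to 9.71 and 6.85 to 7.97). GGGCGG (SP/KLF) and GCCNNNGGC (TFAP2) went the other way, at 8.58% and 6.09% against 21.9% and 14.2% in those distal regions. The remaining motifs were at 9.19% for GGAATG (TEAD), 5.60% for ACAATG (SOX), 1.66% for GCGCATGC (NRF1), 0.525% for ATGCAAAT (POU), 0.175% for CCGGAAGT (ETS), 0.0876% for TGACGTCA (CRE) and 0.306% for the CTCF core motif. In all regions these shares were 8.51%, 5.11%, 1.16%, 0.527%, 0.249%, 0.0993% and 0.273%. Matches can overlap, as CCAAT on the other strand (ATTGG) and TTGGCA do in ATTGGCA. The regions only in VPA that lay in introns or between genes had 16.8% for TGTGGT, 7.15% for TGANTCA and 7.80% for AGATAA. They had 17.8% for CCAAT, 8.55% for TTGGCA, 8.45% for GGGCGG and 6.13% for GCCNNNGGC. Their windows had a median G+C of 51.2%, against 54.7% in the distal regions of all 6 lists and 63.2% at all positions of that class. The part of base composition in the motif shares was not tested.

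The stretch GGATTACAG of the Alu repeat consensus was also counted in all windows on both strands, a choice made after sequences of the strongest regions were seen, since the ALDH16A1 and JRKL windows hold it. Alu elements are short repeats, abundant in gene-rich parts of the human genome. The stretch occurred in 544 of the 2284 windows, or 23.8% (22.1 to 25.6). It occurred in 5.91% of the regions in all 6 lists, in 10.9% of those in introns or between genes, in 7.79% of the regions only in CTRL and in 5.68% of windows tiling the autosomes. The classes just outside the rule had 18.6% and 21.3%, regions with a peak in a single VPA list and no CTRL list had 22.2%, and regions with a peak in a single CTRL list and no VPA list had 18.3%. Taken at each library's own summit, the share in the regions only in VPA was 26.1%, 22.6% and 21.6% in VPA replicates 1, 2 and 3. Over all peaks of a list it was 11.1%, 7.21% and 7.52% in CTRL and 16.2%, 11.2% and 10.9% in VPA, so replicate 1 was highest in each treatment. Without VPA replicate 1 the share was 16.4%, and with replicates 2 and 3 alone 17.6%. Reads in repeats align less surely to 1 place, and how the aligner handled them was not tested.

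Regions with the stretch differed little in height from those without. Median folds were 3.85, 3.23 and 3.27 with it and 3.85, 3.38 and 3.44 without it. They lay closer to a CTRL region, at a median of 5.64 kb against 9.92 kb, and 88 of 544 (16.2%) carried CTCF in 6 lists against 458 of 1740 (26.3%). TGTGGT occurred in 19.1% of the windows with the stretch and in 15.9% of those without, against 10.7% of distal all-6 windows without it. GCGCATGC occurred in 3.68% and 1.03%, against 0.535%.

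The distance to CTRL regions is given without a baseline from other places of the genome. Edges are those of regions merged over all 6 lists, so a VPA peak can widen a CTRL region and shorten the distance. From edge to edge, the nearest region with a peak in at least 1 CTRL list lay at a median of 8.38 kb (quartiles 2.39 and 24.8). Within 1 kb of such a region lay 14.0% of the regions only in VPA, within 5 kb 38.8%, within 10 kb 54.1%, within 50 kb 87.4% and within 100 kb 94.5%. The regions with 2 VPA lists and no CTRL list had a median of 7.42 kb and 16.9% within 1 kb. The nearest CTRL region was present in all 6 lists for 58.7% of the regions, against 54.8% of all CTRL regions, and at a promoter for 31.6% against 28.8%. Of the 1200 regions inside a protein-coding gene, 77.2% (74.7 to 79.5) lay in a gene whose 5′ end met a CTRL region, against 88.8% for regions in all 6 lists, 79.0% for those with 2 VPA lists and no CTRL list, 85.2% for all regions and 91.4% for the regions only in CTRL. Of all protein-coding genes, 64.9% had such a 5′ end. The median distance was 11.4 kb when a CTRL region needed a peak in 2 lists.

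**Figure D4:**
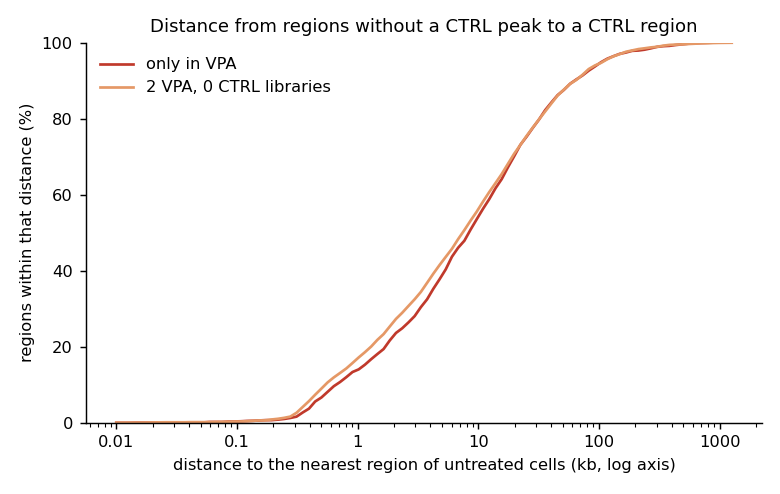
Cumulative percent of regions without a CTRL peak by the distance to the nearest merged region with a CTRL peak (kb, log axis). The curve of the regions only in VPA passes 14.0% at 1 kb, 54.1% at 10 kb and 94.5% at 100 kb, and lies close to that of regions with 2 VPA lists.

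The 5 farthest regions lay between genes, the first of them 879 kb from a CTRL region. This farthest region only in VPA (chr9:115591236-115592266) had its nearest gene start at TNC, an extracellular matrix gene. It held 28, 59 and 47 fragments with folds of 6.20, 7.72 and 6.57 and carried CTCF in 6 of 6 lists. The others, 568 to 725 kb from a CTRL region, lacked CTCF and had their nearest gene starts at FAM174A (727 kb away), MAN1A1 (656 kb), PCDH10 (637 kb) and SCLT1 (1547 kb). The region named for MAN1A1, an enzyme of glycan trimming, had folds of 4.28, 5.45 and 3.56, and that named for PCDH10, a protocadherin, had 4.23, 2.67 and 3.23. Their summits held 15 to 43 fragments.

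CTCF lists were not used to choose the regions. Of the 2284, 546 (23.9%, 22.2 to 25.7) shared a base with a CTCF peak in 6 of 6 CTCF lists, 207 in 1 to 5 lists and 1531 (67.0%) in none. Regions in all 6 H3K27ac lists met CTCF in at least 1 list in 51.7% of cases, all regions in 33.4%, the regions only in VPA in 33.0% and the regions only in CTRL in 3 of 77 (3.90%, 1.33 to 10.8). CTCF in 6 lists was most frequent at exons, 46.2% (36.3 to 56.3) of the 91 regions there, followed by 23.9% between genes, 22.4% in introns and 15.0% at promoters. In all regions it was 31.8% at exons, 20.9% between genes, 12.9% in introns and 37.4% at promoters. Regions in all 6 H3K27ac lists had 38.0%, 27.2%, 19.9% and 38.2% at the same positions. The classes just outside the rule had 48.6% at exons with 3 VPA lists and 1 CTRL list and 37.4% with 2 VPA lists and no CTRL list. Between genes these classes had 24.8% and 23.2%, and in introns 16.9% and 17.9%.

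The CTCF peaks met by the regions only in VPA were high ones in replicates 2 and 3, where their median fold was 49.5 and 50.2 in CTRL and 53.3 and 52.4 in VPA, against 11.7 to 14.2 at regions of all 6 H3K27ac lists. The classes just outside the rule had similar folds in these libraries, 48.1 to 50.4 with 2 VPA lists and no CTRL list and 43.5 to 45.2 with 3 VPA lists and 1 CTRL list. In replicate 1 the fold was 17.5 in CTRL and 12.6 in VPA, against 10.3 and 8.90 at regions of all 6 lists, but the median percentile of the peaks in their list, 60.8% and 53.9%, was lower than the 64.9% and 68.5% of that class. The CTCF summit lay a median of 217 to 234 bp from the H3K27ac summit, against 359 to 418 bp at the wider regions of all 6 lists. The core CTCF motif was found anywhere in 127 of the 546 regions with CTCF in 6 lists (23.3%, 19.9 to 26.98) and in 4 of the 1531 without CTCF (0.261%). The motif lay off the H3K27ac summit, so for the first 3 of the strongest CTCF-bearing regions that hold it, windows of 50 bases on each side of the motif centre are shown. This choice was made after the data were seen, and capitals mark the core CTCF motif.
Region near LAPTM5, CTCF motif, chr1:30779723-30779823, plus strand: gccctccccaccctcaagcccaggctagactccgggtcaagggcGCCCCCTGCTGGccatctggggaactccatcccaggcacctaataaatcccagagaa
JRKL intron region, CTCF motif, chr11:96463965-96464065, plus strand: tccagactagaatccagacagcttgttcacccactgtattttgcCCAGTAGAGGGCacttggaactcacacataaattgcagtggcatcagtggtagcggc
Region near C16orf54, CTCF motif, chr16:29710473-29710573, plus strand: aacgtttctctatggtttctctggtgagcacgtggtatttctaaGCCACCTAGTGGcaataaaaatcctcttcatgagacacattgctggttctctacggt

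The 10 strongest regions with CTCF in 6 lists were those near LAPTM5, HRH4, APOD, C16orf54 and TNK2, those in ALDH16A1 and JRKL, and 3 more. An exon region of ELOA, a transcription elongation factor, had H3K27ac folds of 10.0, 6.28 and 8.01. A region near TRPM4, a cation channel gene, had 12.4, 4.81 and 4.81, and an intronic region of GRIK5, a kainate receptor subunit, had 11.2, 4.31 and 4.87. In these last ones replicate 1 was far above the other libraries.

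No difference in CTCF between CTRL and VPA larger than the spread of the libraries was found at the regions only in VPA. The share of the regions with a CTCF peak was 27.1%, 30.8% and 30.3% in CTRL and 25.7%, 30.4% and 30.9% in VPA, or 29.4% ± 1.98 and 29.0% ± 2.85 (SD, n = 3 each, two-sided exact permutation test, p = 0.9, adjusted p = 0.9). The values overlapped, and replicate 1 was lowest in each treatment. Relative to the share among all H3K27ac regions, the ratio was 1.12, 1.02 and 1.05 in CTRL and 1.06, 1.04 and 1.11 in VPA (p = 0.8 and adjusted p = 0.9 by the same exact test). The percent of a library's CTCF summits inside the regions was 1.34, 1.014 and 1.03 in CTRL and 1.32, 1.10 and 1.06 in VPA (p = 0.6 and adjusted p = 0.9 by the exact test). The median percentile of those peaks was 60.8%, 81.3% and 81.3% in CTRL and 53.9%, 78.9% and 80.3% in VPA (p = 0.5 and adjusted p = 0.9 by the exact test). With 3 against 3 libraries the smallest p is 0.1, so the tests could not pass 0.05, and the p-values were adjusted over these 4 tests by the Benjamini-Hochberg method. Without CTCF CTRL replicate 2 all 4 differences (VPA minus CTRL) changed sign, to 0.328 percentage points, -0.00701, -0.0256 and 0.0442. Without CTCF CTRL replicate 3 or CTCF VPA replicate 1 the ratio kept its sign and the other 3 changed it, with values of 0.0438, -0.0173 and 0.0047 and of 1.26, -0.0480 and 5.16. Without CTCF VPA replicate 3 or H3K27ac CTRL replicate 1 the ratio did so, at -0.00771 and -0.00853.

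**Figure D5:**
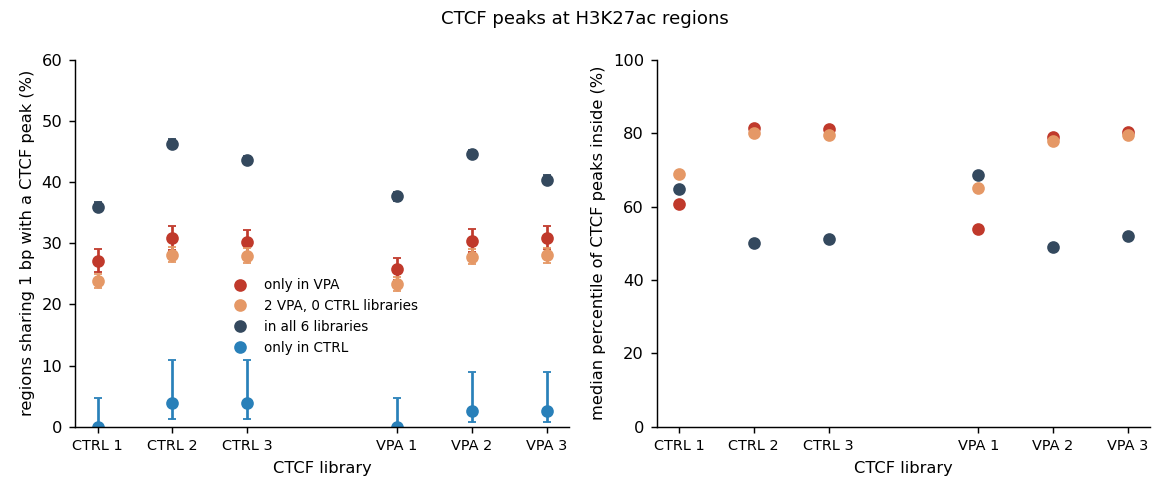
Percent of H3K27ac regions that share a base with a CTCF peak (left, points with 95% Wilson intervals) and median percentile of the CTCF peaks inside them (right) in each of the 6 CTCF libraries. The regions only in VPA lie between 25.7% and 30.9% in all 6, and replicate 1 is lowest in both treatments.

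CTCF peaks found in the libraries of a single treatment were rare. Over all 69985 merged CTCF regions, 130 (0.186%) were present in 3 VPA and 0 CTRL lists and 228 (0.326%) in 3 CTRL and 0 VPA lists. Of the 2284 regions only in VPA, 1 met a CTCF region of the first kind and 0 one of the second, and of all 55382 H3K27ac regions 27 and 57 did, a share of like size for the first kind. That region lay in an intron of ACSL1, a fatty acid activating enzyme (chr4:184814919-184815961), 8.65 kb from a CTRL region. Its H3K27ac folds were 4.38, 2.77 and 2.81 on summits of 22, 13 and 16 fragments. The CTCF peak had folds of 5.15, 6.96 and 7.26, stood at the percentiles 17.4%, 21.2% and 20.7% of the VPA lists, and had its summit 630 to 696 bp from that of H3K27ac. A low peak was thus present in each VPA library of both antibodies at the edge of the same region.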

How the data were processed

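ChIP-seq of HEK293T cells was used as deposited, as 1 narrowPeak list for each of 12 libraries (H3K27ac and CTCF, CTRL and VPA, 3 replicates). Per the study's methods, the authors aligned reads to hg38 with Bowtie2 and called peaks per library on fragments with MACS at a q-value of 0.05, and the labels give MACS3 3.0.0a7 and also name DiffBind. Input served the authors for coverage tracks, and its use in peak calling is not given in the sources used here. The deposited columns hold an integer score (not used), the fold enrichment (a ratio over local background), the −log10 p-value and the −log10 q-value at the summit. Fragments over the summit and the local background were recovered from the p-value and fold enrichment. The recovered values were whole within 0.05 for at least 99.9975% of peaks in every list. Read totals are not in the lists, so depth is unknown and precision is set by the number of libraries and regions.

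Peaks were merged at 1 bp with numpy 2.4.6 and pandas 2.3.3 (Python 3.11.15). The region's summit was that of its highest VPA peak, or CTRL peak where there was none. Regions were placed on GENCODE 44 protein-coding genes, where the gene start is the annotated 5′ end, and bases were read with pysam 0.24.0 from hg38. None of the 506359 peaks ran beyond a chromosome end. CTCF was compared by two-sided exact permutation over 20 assignments, and no test was made over regions. Wilson intervals used scipy 1.17.1. The rule, lists and members were chosen with earlier results of these data known. Named were genes with at least 3 regions, the 12 strongest regions, the 10 strongest with CTCF in 6 lists, those at a CTCF region of a single treatment, the 5 farthest from CTRL, the 6 longest runs, the 5 highest and 5 lowest in G+C, and examples of gene families. Printed windows are the first of these that meet no UTR, and some named items and windows are not reported here. Region merging, value recovery and the exact tests were tested on simulated data. Alternatives were stricter q-values, equal list lengths, other overlaps, other definitions of place and leaving out each library.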

Additional observations from a re-analysis of the deposited data

How the results depend on the processing

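Median G+C of the regions only in VPA moved by less than its spread over libraries in 13 of 13 alternatives. Their number was 540 with H3K27ac lists of equal length, 6318 with replicates 2 and 3 alone (chosen after the data were seen) and 2843 to 5636 with 1 H3K27ac list left out. The highest of these was without VPA replicate 1. The share inside genes was 43.9% and 57.1% under the first pair of settings and 53.4% to 56.7% with a list left out. Genes with at least 3 regions numbered 36 when peaks had to cover 25% of a region, 15 with a −log10 q-value of at least 3 in all lists, 10 with that limit in VPA alone, 0 with equal lengths, 212 with replicates 2 and 3 alone and 43 to 156 with a list left out. Median distance to a CTRL region was 8.25 kb, 8.74 kb, 8.49 kb and 9.04 kb under the first 4 of these settings, 11.4 kb with CTRL regions in 2 lists, 9.46 kb with peaks merged within 500 bp and 7.34 to 9.23 kb with a list left out. The 4 CTCF differences (VPA minus CTRL) had no stable sign. The share with CTCF, −0.379 percentage points, was 0.131 with CTCF replicates 2 and 3 alone (chosen after the data were seen) and −1.51 to 1.26 with a list left out. The ratio, 0.0126, was −0.00844 with CTCF lists of equal length, −0.00445 with the CTCF summit required inside and −0.00853 to 0.0397 with a list left out. The percent of CTCF summits inside, 0.0321, was −0.0238 with equal lengths and −0.0480 to 0.139 with a list left out. The median percentile, −3.40, was −10.2 to 5.16 with a list left out. A replicate block left the differences at −0.379, 0.0126, 0.0321 and −3.40 by construction, with exact sign-change p of 0.75, 0.75, 0.5 and 0.25, where 0.25 is the smallest possible. CTCF deviations correlated at 0.340, −0.0451 and 0.477 within replicate numbers 1, 2 and 3, and CTRL replicate 2 correlated best with VPA replicate 3 (0.409), so for CTCF, where the tests were made, the samples were taken to share a number only. H3K27ac deviations, on which no test rests, correlated at 0.864, 0.585 and 0.590 within the numbers, and at 0.606 and 0.554 between numbers 2 and 3. Replicate 1 thus went with replicate 1 in both antibodies. The cause of these shifts was not tested. Without read totals, a missing CTRL peak cannot be read as missing acetylation.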
